A study of Homo sapiens with 5 samples.

Results

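The genes described here are 40 genes of glycolysis and of the response to low oxygen, chosen by symbol among the 33538 genes of the deposited table, and every one of them had a unique entry and at least 1 count. They comprise 17 glycolytic enzymes, 4 transporters of glucose and lactate, 3 regulators of glycolytic flux and 16 hypoxia-inducible genes outside the pathway itself. They were measured in MDA-MB-468, an established human line of triple-negative breast cancer, in which the transcription factor gene FOSL1 had been raised. Cells of 5 samples were tagged with 1 hashtag antibody each, pooled, and sequenced as 1 droplet library that counts a tag near the 3' end of each transcript. The protocol in the labels gives 6 samples for the pool, and 5 hashtags are in the matrix. The HA system has a control and a FOSL1 sample, and the VPR system has a control and 2 FOSL1 samples, which carry the guide RNAs gRNA2 and gRNA3. The labels do not spell out HA or VPR, give no oxygen level for the cultures, identify the DMEM medium by catalogue number without stating its glucose content, and mention 5-fluorouracil for the series without saying whether these samples received it.

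Glycolysis turns glucose into pyruvate, and lactate dehydrogenase turns pyruvate into lactate, which leaves the cell through monocarboxylate transporters. When oxygen is short, the factors HIF-1alpha and HIF-2alpha escape degradation and switch on many glycolytic genes together with genes for pH control, vessel growth, mitophagy and collagen processing. Cancer lines often run this programme at a basal level in ordinary culture. FRA-1, the product of FOSL1, is part of the AP-1 complex, which binds a different DNA motif from HIF.

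Each group held 1 sample, so a ratio between 2 samples has no replicate check and no p-value, and its 95% interval covers counting error only. The filtered cells numbered 1826 to 4299 per sample and held between 42058533 and 85556699 UMIs, unique transcript tags. FOSL1 itself stood at 8.96 and 8.91 CPM (UMIs relative to the sample's total, on a common scale) in the HA and VPR controls. It was at 63.5 CPM in HA FOSL1, at 100.5 CPM under gRNA2 and at 94.3 CPM under gRNA3. Whether tags near the 3' end count FOSL1 RNA alike in both systems was not tested. HA FOSL1 cells had the highest median depth, 20768.5 UMIs beside 15401.5 to 18121 elsewhere, and the lowest median mitochondrial share, 9.80% beside 10.5% to 11.5%. Their part in the results was not tested, and HA ratios at matched depth are given below for several genes. The epithelial markers EPCAM, KRT8, KRT18, KRT19 and KRT7 were present in every sample, while DCN and HBB, which define fibroblasts and red cells, were at 0 UMIs in all 5. Of 4 leukocyte markers CD68 was the most abundant, and their summed level was 0.759 CPM in the VPR control, 0.842 CPM in the HA control and 4.47 CPM in HA FOSL1, the highest sample. The 3 endothelial markers summed to 0.424 to 1.81 CPM, also highest in HA FOSL1, the 4 fibroblast markers, nearly all COL1A1, to 2.21 to 4.37 CPM, and the 2 red cell markers to 0.0223 to 0.0701 CPM. Their part in the results was not tested.

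A lactate exporter was the member edgeR called as higher with FOSL1 over the 3 arms. SLC16A3 encodes MCT4, a high-capacity exporter of lactate, and its level was 10.1 CPM in the HA control and 17.5 CPM in HA FOSL1. In the VPR system it was 9.45 CPM in the control, 19.1 CPM under gRNA2 and 16.5 CPM under gRNA3. All 3 FOSL1 samples lay above both controls, as they also did for other members, among them TPI1 and ENO1. The share of all genes with this order was not counted. The log2 ratio of CPM + 1 was 0.74 (95% interval 0.59 to 0.89) in the HA arm, 0.94 (0.79 to 1.10) under gRNA2 and 0.75 (0.60 to 0.89) under gRNA3, against -0.08 (-0.25 to 0.08) for the VPR control over the HA control. In 1 model of the 5 samples, with the system as covariate and the 3 FOSL1 samples as repeats of 1 effect, SLC16A3 rose by 0.88 log2 (SE 0.09, edgeR adjusted p = 0.035, higher in 3 of 3 arms). It was the 1 member of 40 that this model called, where 1.61% of all 15439 genes tested were called. Without the gRNA2 sample its adjusted p in edgeR was 0.12 and without gRNA3 it was 0.14, at estimates of 0.84 and 0.93 log2. The arms under gRNA2 and gRNA3 share the VPR control. SLC16A3 lies under a mean of 20 CPM, the minimum used for counts below, and empty droplets held it at 12.3 CPM. With every cell thinned to 5000 UMIs, SLC16A3 was detected in 4.81% of the cells of the HA control (4.11% to 5.59%, exact binomial) and 7.81% of those of HA FOSL1 (6.62% to 9.14%). The share was 4.06% (3.33% to 4.89%) in the VPR control, 7.37% (6.38% to 8.46%) under gRNA2 and 7.48% (6.71% to 8.31%) under gRNA3. Without thinning the shares were 13.55%, 28.5%, 14.0%, 25.6% and 24.4% in the same order. No cell type lacking these genes was in the pool, so empty droplets are the comparison for free RNA. Their CPM gives the make-up of free RNA over the whole pool, and neither that of 1 sample nor its amount in a cell.

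SLC16A1 encodes MCT1, which carries lactate in either direction. It stood at 12.5 CPM in the HA control, 25.5 CPM in HA FOSL1, 12.2 CPM in the VPR control, 17.3 CPM under gRNA2 and 17.2 CPM under gRNA3. The controls were alike and the HA FOSL1 sample was the highest. Its ratios were 0.97 (0.84 to 1.10), 0.47 (0.32 to 0.62) and 0.46 (0.33 to 0.60) for HA, gRNA2 and gRNA3, and the model gave 0.75 (SE 0.13, edgeR adjusted p = 0.065, 3 of 3 arms higher), which did not pass. SLC2A1, the glucose transporter GLUT1, had levels of 40.02, 56.5, 40.6, 48.8 and 48.6 CPM in the HA control, HA FOSL1, the VPR control, gRNA2 and gRNA3. Its ratios were 0.49, 0.26 and 0.25 in the 3 arms and 0.02 between the controls (model 0.39, edgeR adjusted p = 0.070). Among HA cells of 10000 to 20000 UMIs the ratio was 0.29. SLC2A3, the neuronal-type transporter GLUT3, was at the edge of detection with 0.0713 to 0.421 CPM. Unlike the other transporters it lay below its control in each arm, with ratios of -0.41 (-0.53 to -0.17), -0.07 and -0.23.

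**Figure D1:**
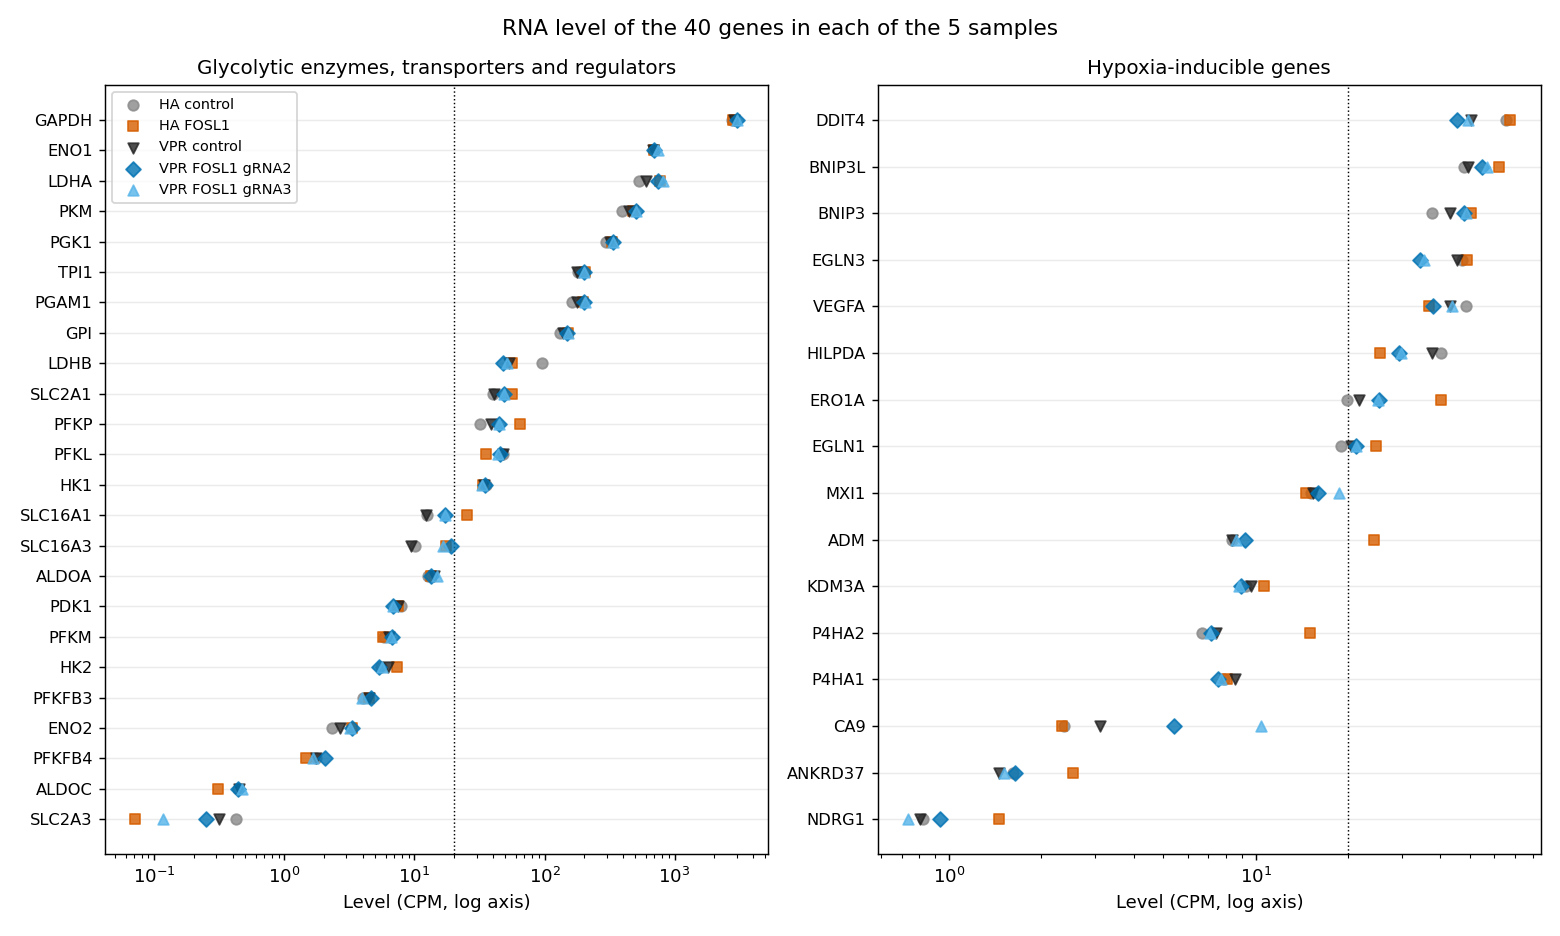
Level of each of the 40 genes in the 5 samples, in CPM (horizontal log axis), with glycolysis genes on the left and hypoxia-inducible genes on the right, ordered by mean level. Each symbol is 1 sample and the dotted line marks 20 CPM. LDHB in the HA control (95.5 CPM), ADM in HA FOSL1 (24.4 CPM) and CA9 under gRNA3 (10.4 CPM) stand apart from the other samples.

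Most of the abundant enzymes lay within 0.3 log2 of their control in each arm, and LDHA, LDHB, PFKP and PFKL lay farther from it in the HA arm. LDHA, the subunit of lactate dehydrogenase that predominates in glycolytic tissues, stood at 532 CPM in the HA control, 776 CPM in HA FOSL1, 601 CPM in the VPR control, 742 CPM under gRNA2 and 820.2 CPM under gRNA3. Its ratios were 0.54 (0.52 to 0.57), 0.30 (0.28 to 0.33) and 0.45 (0.43 to 0.47), beside 0.18 between the controls. The model gave 0.47 (SE 0.07, edgeR adjusted p = 0.053, 3 of 3 arms higher), just short of the threshold of 0.05. GAPDH, which oxidises glyceraldehyde 3-phosphate, was at 2789, 2815, 2856, 3036 and 3049 CPM in the HA control, HA FOSL1, the VPR control, gRNA2 and gRNA3, so that its ratios were 0.01, 0.09 and 0.09. ENO1, the common enolase, was at 688, 699.5, 685, 691 and 743 CPM in that order, with ratios of 0.02, 0.01 and 0.12. Between those extremes, the pyruvate kinase gene PKM (0.28, 0.19 and 0.18), the mutase PGAM1 (0.28, 0.18 and 0.21), the isomerases TPI1 (0.18, 0.19 and 0.19) and GPI (0.21, 0.10 and 0.12) and the kinase PGK1 (0.17, 0.06 and 0.07) were slightly above the control in each arm. TPI1 differed by -0.02 between the controls. PKM differed by 0.17 there, close to its guide ratios, and PGK1 by 0.11, more than its guide ratios. Their adjusted p in the edgeR model ran from 0.067 for PKM to 0.16 for PGK1. Several of these enzymes have processed pseudogenes, so reads could be split or lost in counting.

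The enzymes that commit glucose to the pathway moved in different directions in the HA arm. PFKP, the platelet-type phosphofructokinase, stood at 31.9 CPM in the HA control, 64.2 CPM in HA FOSL1, 38.7 CPM in the VPR control, 45.04 CPM under gRNA2 and 44.7 CPM under gRNA3. Its ratio was 0.99 (0.91 to 1.07) in the HA arm, beside 0.21 with either guide and 0.27 between the controls. Among HA cells of 10000 to 20000 UMIs it was 0.79. The liver-type form PFKL was at 48.3 CPM in the HA control and 35.4 CPM in HA FOSL1, and at 47.9, 45.8 and 44.0 CPM in the VPR control, gRNA2 and gRNA3. HA FOSL1 was its lowest sample, with a ratio of -0.44 (-0.53 to -0.35) against -0.06 and -0.12 with the guides. The muscle-type form PFKM was at 5.71 to 6.68 CPM in all samples. HK2, the inducible hexokinase, was at 5.54, 7.32, 6.28, 5.35 and 5.63 CPM in the HA control, HA FOSL1, the VPR control, gRNA2 and gRNA3, and its ratios were 0.35, -0.20 and -0.13. HK1, the housekeeping hexokinase, was within 0.06 log2 of its control in every arm. The difference between the systems, tested as an interaction of system and FOSL1 state, was -0.82 log2 for PFKP (VPR effect minus HA effect, edgeR adjusted p = 9.0e-05), 0.33 for PFKL (adjusted p = 0.027 in edgeR) and -0.61 for HK2 (adjusted p = 0.039 in edgeR).

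Of the remaining enzymes, ALDOA was at 12.7 to 14.9 CPM, with ratios of 0.08, -0.07 and 0.07. The brain-type enzymes ALDOC (0.309 to 0.468 CPM) and ENO2 (2.33 to 3.31 CPM) were low in all 5 samples. The regulators were also low and close to their controls. PFKFB3, which makes the activator fructose 2,6-bisphosphate, had ratios of 0.12, 0.03 and -0.14, PFKFB4 had -0.15, 0.16 and -0.04, and PDK1, the kinase that blocks pyruvate dehydrogenase, had -0.08, -0.11 and -0.11. No counting interval of the 3 regulators excluded 0 in any arm.

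**Figure D2:**
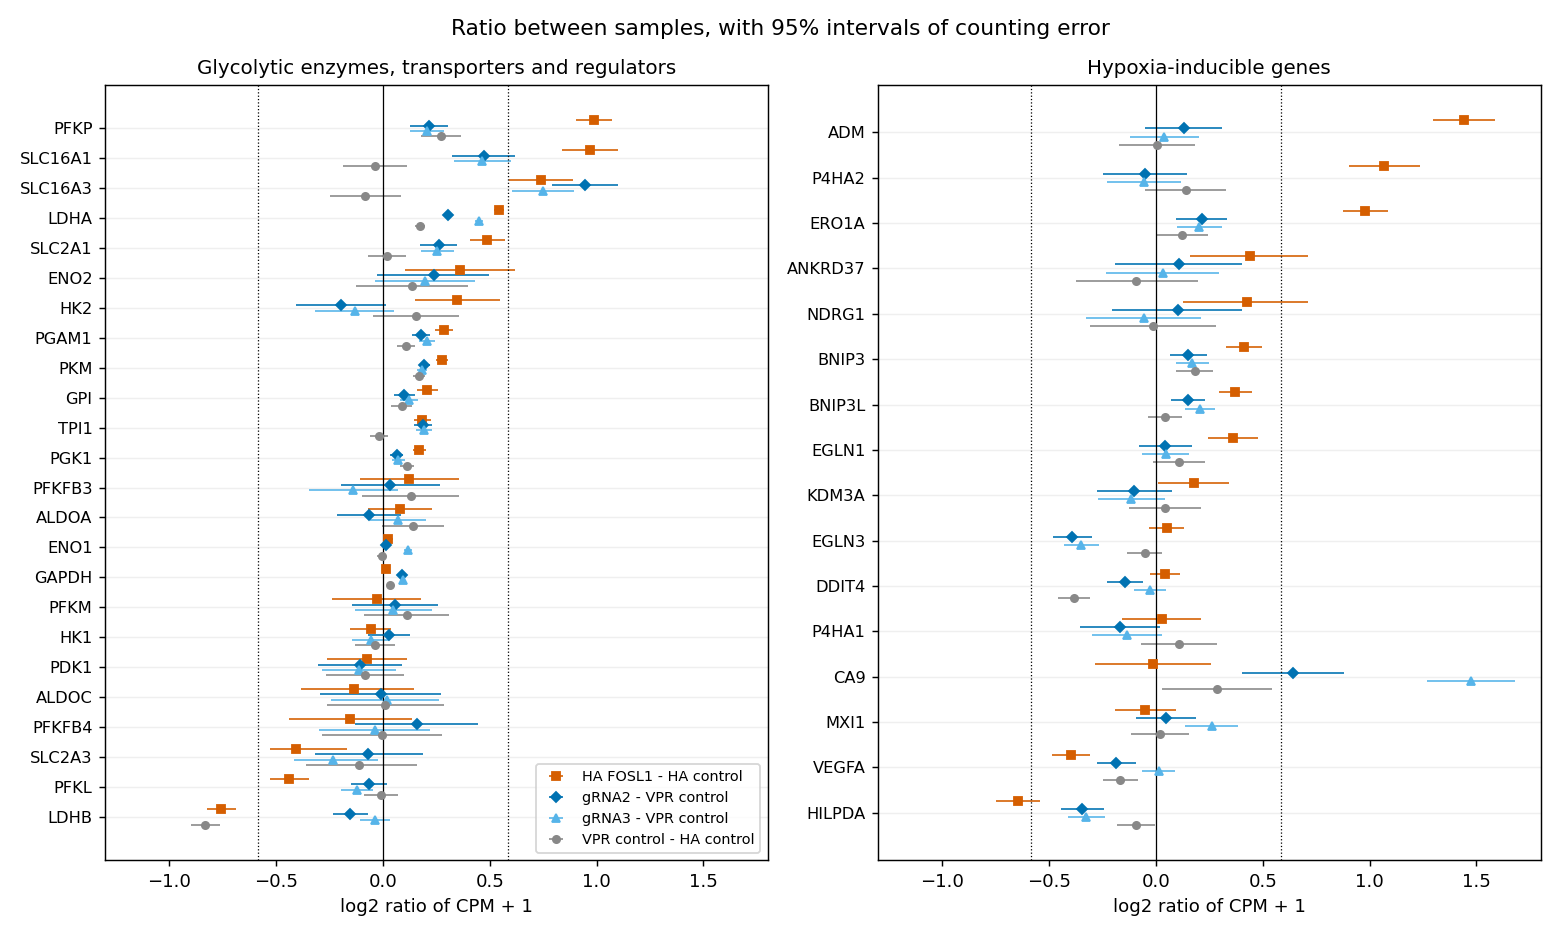
Log2 ratio of CPM + 1 (horizontal axis) for each of the 40 genes in the arms HA, gRNA2 and gRNA3 and for the VPR control over the HA control, each point being 1 sample over 1 sample with its 95% interval of counting error. Dotted lines mark 1.5-fold. SLC16A3 lies at 0.74, 0.94 and 0.75 in the 3 arms, while ADM lies at 1.44 in the HA arm and at 0.13 and 0.04 with the guides.

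LDHB, the lactate dehydrogenase subunit that predominates in heart and other oxidative tissues, had its highest level in the HA control. In the HA control it stood at 95.5 CPM (93.0 to 98.1, exact Poisson), and it was at 56.1 CPM in HA FOSL1, 53.2 CPM in the VPR control, 47.7 CPM under gRNA2 and 51.8 CPM under gRNA3. The HA control was high and the other 4 samples, a control among them, lay close together. The ratio was -0.76 (-0.83 to -0.69) in the HA arm but -0.83 (-0.90 to -0.76) between the controls, the third lowest value of 5726 genes there, and it turned to 0.08 when HA FOSL1 was set against the VPR control. With the guides it was -0.15 and -0.04. The interaction for LDHB was 0.65 log2 (edgeR adjusted p = 0.00088). With 1 sample per group, the part of the HA control sample in it cannot be told from that of FOSL1. At 5000 UMIs per cell, 28.9% of HA control cells had an LDHB UMI (27.4% to 30.5%) against 20.5% of HA FOSL1 cells (18.6% to 22.4%) and 17.4% to 18.9% in the VPR samples. Without thinning the shares were 48.7%, 41.6%, 33.9%, 35.2% and 36.6%. Empty droplets held LDHB at 55.4 CPM, close to its level in the 4 samples other than the HA control. LDHB was also unevenly spread among cells of every sample. With the same mean and no spread between cells (a Poisson count), 37.0% of HA control cells would have had a UMI, and 22.1% to 26.8% of cells in the other samples. The variance of its thinned counts was 1.63 to 1.92 times the mean in the 5 samples, against 1.04 to 1.15 for GPI, an enzyme of higher mean level. Cells with 3 or more LDHB UMIs made up 4.28% of cells in the HA control, 2.64% in HA FOSL1, 2.20% in the VPR control, 1.58% under gRNA2 and 1.77% under gRNA3.

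**Figure D3:**
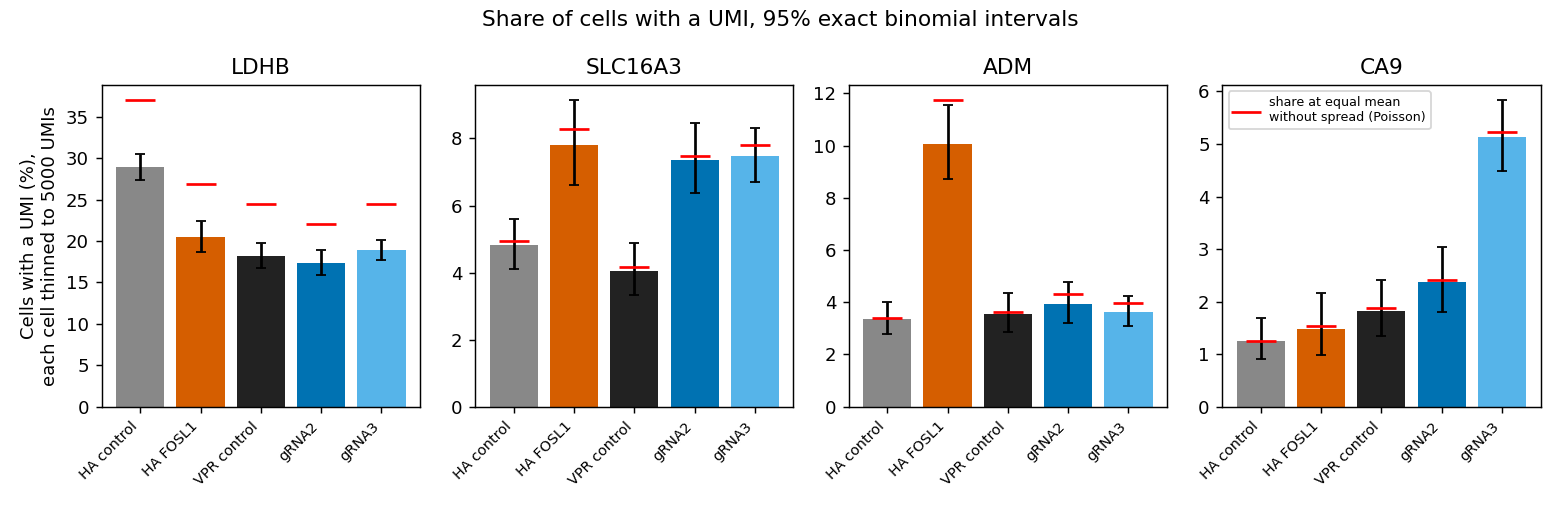
Share of cells with at least 1 UMI of LDHB, SLC16A3, ADM and CA9 in each sample after thinning each cell to 5000 UMIs (vertical axes in percent, starting at 0), with exact 95% binomial intervals and, in red, the share a Poisson count of the same mean would give. LDHB lies below its red marks in every sample (28.9% against 37.0% in the HA control), and CA9 lies near them (5.13% against 5.22% under gRNA3).

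Hypoxia-inducible genes outside glycolysis did not move as 1 group. Adrenomedullin, the vasodilator peptide encoded by ADM, stood at 8.35 CPM in the HA control, 24.4 CPM in HA FOSL1, 8.37 CPM in the VPR control, 9.26 CPM under gRNA2 and 8.64 CPM under gRNA3. HA FOSL1 alone was high, with a ratio of 1.44 (1.30 to 1.59), and the counting intervals of both guide ratios held 0 (0.13, -0.05 to 0.31, and 0.04, -0.12 to 0.20). A UMI of ADM was found in 10.1% of thinned HA FOSL1 cells (8.72% to 11.5%) and in 3.36% to 3.94% of the cells of the other samples, or in 30.8% and 10.8% to 12.6% without thinning. The variance of the thinned counts was 1.40 times the mean in HA FOSL1. Empty droplets, which mix free RNA of all 5 samples, held ADM at 10.4 CPM, given without a counting interval. As HA FOSL1 is part of that mix, this value is no floor for the other samples. The part of free RNA in the shares of cells was not tested. P4HA2, a prolyl hydroxylase subunit needed for stable collagen, was at 6.66, 15.1, 7.44, 7.14 and 7.12 CPM in the HA control, HA FOSL1, the VPR control, gRNA2 and gRNA3. In the HA arm the ratio was 1.07 (0.90 to 1.24), beside -0.05 and -0.06 for the guides. ERO1A, which reoxidises the disulfide machinery of the endoplasmic reticulum, was at 19.8, 40.1, 21.7, 25.3 and 25.1 CPM in the same order. The HA ratio was 0.98 (0.87 to 1.08), and the guides gave 0.21 and 0.20. For these genes the difference between the systems was -1.48 log2 for ADM (edgeR adjusted p = 3.4e-05), -1.26 for P4HA2 (edgeR adjusted p = 0.00017) and -0.82 for ERO1A (edgeR adjusted p = 0.00017). In cells of 10000 to 20000 UMIs the HA ratios were 1.32, 0.89 and 0.94. P4HA1, the other catalytic prolyl hydroxylase subunit in the list, had ratios of 0.03, -0.17 and -0.14.

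CA9, a membrane carbonic anhydrase and a widely used marker of hypoxia, had the opposite pattern, and lies under 20 CPM, so that it is described in full because of its values. It stood at 2.37 CPM (1.98 to 2.80) in the HA control, 2.33 CPM (1.89 to 2.84) in HA FOSL1, 3.10 CPM (2.61 to 3.67) in the VPR control, 5.41 CPM (4.77 to 6.11) under gRNA2 and 10.4 CPM (9.73 to 11.1) under gRNA3. Both guide samples were above every other sample, and gRNA3 was above gRNA2. The ratios were -0.02 (-0.29 to 0.26) in the HA arm, 0.64 (0.40 to 0.88) under gRNA2 and 1.47 (1.27 to 1.68) under gRNA3. The guides differed by 0.83 log2 (0.66 to 1.01). Neither the model (0.84, SE 0.45, edgeR adjusted p = 0.29) nor the interaction (1.40, SE 0.56, edgeR adjusted p = 0.14) called it. A CA9 UMI was found in 5.13% of thinned gRNA3 cells (4.49% to 5.83%), 2.36% under gRNA2 and 1.2% to 1.82% in the other samples, or 17.4%, 9.48% and 3.73% to 5.16% without thinning. Empty droplets, which mix free RNA of the whole pool, gRNA3 included, held CA9 at 5.68 CPM, given without a counting interval.

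To show where HIF and AP-1 letters lie, some genes were picked after their values were seen. The 250 bases before the RefSeq start of CA9, ADM and ERO1A are given below, 5′ to 3′ on the gene's strand (RefSeq, GRCh38.p14). CA9 is at chr9:35673678-35673927 on the plus strand, ADM at chr11:10304823-10305072 on the plus strand and ERO1A at chr14:52695559-52695808 on the minus strand. Capitals mark matches on either strand to ACGTG or GCGTG, the core letters of the HIF site, and to TGANTCA, the AP-1 site.
CA9: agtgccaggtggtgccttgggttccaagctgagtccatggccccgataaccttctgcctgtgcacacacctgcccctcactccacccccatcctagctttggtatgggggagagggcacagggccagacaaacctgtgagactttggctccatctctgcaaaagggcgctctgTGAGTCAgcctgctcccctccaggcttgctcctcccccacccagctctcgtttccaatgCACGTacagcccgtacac
ADM: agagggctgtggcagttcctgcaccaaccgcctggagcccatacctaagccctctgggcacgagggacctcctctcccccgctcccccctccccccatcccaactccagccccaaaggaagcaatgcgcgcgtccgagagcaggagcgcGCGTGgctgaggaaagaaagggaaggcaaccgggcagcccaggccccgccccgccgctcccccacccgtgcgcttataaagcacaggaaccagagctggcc
ERO1A: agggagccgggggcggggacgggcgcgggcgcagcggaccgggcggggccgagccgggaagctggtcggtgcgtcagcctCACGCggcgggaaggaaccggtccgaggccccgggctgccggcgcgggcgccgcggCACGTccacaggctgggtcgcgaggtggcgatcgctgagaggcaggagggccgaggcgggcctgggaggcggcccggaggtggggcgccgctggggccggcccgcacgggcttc
The window of CA9 held 1 match to TGANTCA, 77 bases before the start, and 1 to ACGTG, 18 bases before it. ADM held 1 match to GCGTG, ERO1A held 1 to each of ACGTG and GCGTG, and P4HA2 (chr5:132227092-132227341) held none of the 3. RefSeq windows were found for 34 of the 40 genes, 63 windows in all, since 3' tags do not tell which start is used. Of these windows 38 (60.3%) held ACGTG or GCGTG, against 43.2% of all 35116 windows, and 5 (7.94%) held TGANTCA, against 6.57% of all windows. ACGTG alone was in 39.7% of the members' windows and 18.5% of all, and GCGTG in 34.9% and 32.2%. Only 4 members held TGANTCA in a window, CA9, HK1, KDM3A and ENO2. SLC16A3, the member that edgeR called in the model, held it in none of its 5 windows. All of these are matches of letters and no measure of binding.

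HILPDA, a lipid droplet protein that inhibits triglyceride breakdown, was low where FOSL1 was raised. Its levels were 40.2 CPM in the HA control, 25.4 CPM in HA FOSL1, 37.6 CPM in the VPR control, 29.4 CPM under gRNA2 and 29.8 CPM under gRNA3. The ratios were -0.64 (-0.75 to -0.54), -0.34 (-0.44 to -0.24) and -0.33 (-0.41 to -0.24). For HILPDA the model gave -0.46 (SE 0.08, edgeR adjusted p = 0.067, lower in 3 of 3 arms), which did not pass. The oxygen sensor EGLN3 was lower with both guides. It stood at 47.0, 48.8, 45.3, 34.3 and 35.4 CPM in the HA control, HA FOSL1, the VPR control, gRNA2 and gRNA3. The ratio was 0.05 (-0.03 to 0.13) in the HA arm, -0.39 (-0.48 to -0.30) under gRNA2 and -0.35 (-0.43 to -0.27) under gRNA3, and the systems differed by -0.45 log2 (edgeR adjusted p = 0.0053). EGLN1, the main oxygen sensor of most cells, was at 19.0, 24.6, 20.5, 21.2 and 21.2 CPM, with ratios of 0.36, 0.04 and 0.04 (interaction -0.35, edgeR adjusted p = 0.036). VEGFA, the vessel growth factor, had ratios of -0.40 (-0.48 to -0.31), -0.19 (-0.28 to -0.09) and 0.01 (-0.06 to 0.09). The mitophagy receptors BNIP3 (0.41, 0.15 and 0.17) and BNIP3L (0.37, 0.15 and 0.21) were above their controls in each arm, but BNIP3 also differed by 0.18 between the controls, the VPR control being the higher, and neither was called (edgeR adjusted p = 0.10 and 0.092).

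DDIT4, an inhibitor of mTORC1, differed more between the systems than within them. It was at 65.7 and 67.7 CPM in the HA control and HA FOSL1 and at 50.2, 45.3 and 49.2 CPM in the VPR control, gRNA2 and gRNA3, so its ratios were 0.04, -0.14 and -0.03 while the controls differed by -0.38 (-0.46 to -0.31). The MYC antagonist MXI1 had ratios of -0.05, 0.05 and 0.26, and the histone demethylase KDM3A of 0.18, -0.10 and -0.12. ANKRD37 (1.45 to 2.54 CPM) and NDRG1 (0.736 to 1.45 CPM) were near the floor of detection, with HA FOSL1 highest for both and HA ratios of 0.44 (0.16 to 0.71) and 0.43 (0.13 to 0.71).

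Counted together, 21 of the 40 genes had a mean of at least 20 CPM in the HA pair, and 4 of those lay at least 1.5-fold from the HA control, PFKP and ERO1A above and LDHB and HILPDA below. Among all 5748 genes at that level, 8.16% lay that far apart (5.97% above and 2.19% below). In the gRNA2 arm 0 of 21 did, against 1.51% of all genes, in the gRNA3 arm 0 of 21, against 1.79%, between the guides 0 of 21, against 0.0873%, and between the controls 1 of 20, LDHB, against 0.262%. With no minimum level, SLC16A1, SLC16A3, ADM and P4HA2 joined the HA count, which became 8 of 40 against 7.47% of genes with a UMI. SLC16A3 and CA9 made up the count with either guide, 2 of 40 against 1.72% under gRNA2 and 2.05% under gRNA3, and CA9 was the 1 gene between the guides (0.0997% of all). At a limit of 0.32 log2 and 20 CPM, 11 of 21 passed in the HA arm (7 above and 4 below), against 22.8% of all genes. The same limit gave 2 of 21 against 5.44% under gRNA2, 3 of 21 against 6.34% under gRNA3 and 2 of 20 against 1.26% between the controls. The 17 enzymes had a median ratio of 0.17 in the HA arm, 0.06 under gRNA2, 0.09 under gRNA3 and 0.11 between the controls. The 12 enzymes at 20 CPM or more had 0.18, 0.09, 0.12 and 0.06. The 4 transporters had 0.61, 0.37, 0.36 and -0.06, and the 16 hypoxia-inducible genes 0.27, 0.05, 0.02 and 0.03. Over all genes with a UMI these medians were -0.03, -0.01, -0.01 and 0.01. Summed over the 17 enzymes, the level was 5413 CPM in the HA control, 5878 CPM in HA FOSL1, 5603 CPM in the VPR control, 6066 CPM under gRNA2 and 6215 CPM under gRNA3. The 16 hypoxia-inducible genes summed to 378, 435, 365, 352 and 373 CPM.

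With both HA samples restricted to cells of 10000 to 20000 UMIs, the HA ratio of CA9 moved from -0.02 to 0.30, of MXI1 from -0.05 to 0.18, of ANKRD37 from 0.44 to 0.23 and of DDIT4 from 0.04 to 0.24. That of BNIP3L went from 0.37 to 0.19 and that of PDK1 from -0.08 to -0.27. For SLC16A3 it was 0.61 and for LDHA 0.46.

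In the model of 5 samples, 17 of the 40 genes had an unadjusted p under 0.05 in edgeR, 14 higher and 3 lower, where 26.0% of all genes did (13.4% higher and 12.6% lower). DESeq2 called 11 of the 40 in the same model, where it called 7.22% of all genes. By list, edgeR's unadjusted p was under 0.05 for 9 of 17 enzymes (8 higher, 1 lower) and 4 of 4 transporters (3 higher, and SLC2A3 lower). It was so for 0 of 3 regulators and 4 of 16 hypoxia-inducible genes (3 higher, 1 lower). The interaction called 10 of 40 by its adjusted p, against 12.2% of the 16071 genes tested, and 8 of those 10 (8.37% of all genes) had the lower effect in the VPR system. DESeq2 called 5 of them, ADM, P4HA2, ERO1A, PFKP and LDHB, against 2.74% of all genes, and did not call HK2, PFKL, SLC16A1, EGLN1 or EGLN3. The interaction has 1 residual degree of freedom, which comes from the spread between the 2 guides. Every sample was single and from 1 pool, so variation among cultures cannot be told apart from that among constructs and guides in these p-values.

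**Figure D4:**
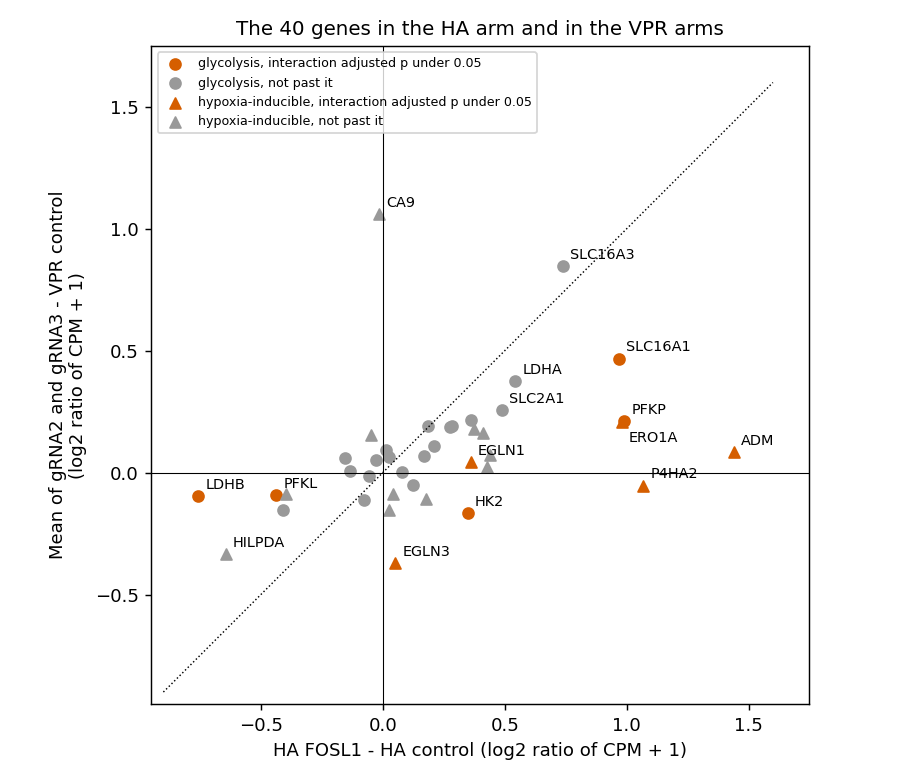
The 40 genes in the HA arm (horizontal axis) and the mean of the gRNA2 and gRNA3 arms (vertical axis), each a log2 ratio of CPM + 1 over the same system's control. Each point is 1 gene, colour marks the 10 genes whose interaction had an edgeR adjusted p under 0.05, and the dotted line marks equal ratios. ADM (1.44 in the HA arm) and P4HA2 (1.07) lie near 0 on the vertical axis, and SLC16A3 lies near the line.

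Enzymes and hypoxia-inducible genes were also summed cell by cell. A cell thinned to 5000 UMIs held a median of 26 UMIs of the 17 enzymes in the HA control, 29 in HA FOSL1, 28 in the VPR control and 30 with either guide. It held a median of 2 UMIs of the 16 hypoxia-inducible genes in every sample, and between 13.8% (HA FOSL1) and 19.2% (gRNA2) of cells held none. Across cells of a sample, Pearson's r between the 2 sums lay between -0.04 and 0.04, over 1818 to 4289 cells that share 1 library and 1 fixed depth. Pairs of hypoxia-inducible genes were taken in each sample where both had a mean of at least 0.1 UMI. Among all these pairs, the highest r was 0.115, for ADM and EGLN3 in HA FOSL1. ADM reached that mean in HA FOSL1 only, so its pairs were not examined in the other samples. At such sparse counts a low correlation is a description only.

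Genes around the pathway were also measured. HIF1A, which encodes HIF-1alpha, was at 60.6 CPM in the HA control, 88.4 CPM in HA FOSL1, 72.8 CPM in the VPR control, 68.0 CPM under gRNA2 and 67.5 CPM under gRNA3. Its ratios were 0.54 (0.47 to 0.60), -0.10 (-0.17 to -0.03) and -0.11 (-0.17 to -0.05), beside 0.26 between the controls (interaction -0.67, edgeR adjusted p = 0.00017). HIF-1alpha is regulated mainly at the protein level, which was not measured. Of the 13 genes of HIF factors and oxygen sensing, edgeR called 0 in the model (DESeq2 called 1, and 3 had an edgeR p under 0.05 before adjustment). Over all genes the model called 1.61%. Their medians were -0.01, -0.01 and -0.04 for HA, gRNA2 and gRNA3. The interaction called 2 of the 13, HIF1A and CITED2, against 12.2% of all genes. Of 36 further hypoxia-inducible genes, 35 were tested and 1 was called, LOXL2, a lysyl oxidase of the matrix, which rose by 0.93 log2 (SE 0.12, edgeR adjusted p = 0.044, 3 of 3 arms), with ratios of 1.07, 0.62 and 0.72. In the same model DESeq2 called 8 of the 35, 7 higher and 1 lower, against 7.22% of all genes. An unadjusted edgeR p under 0.05 was found for 17 of the 35, 10 higher and 7 lower, against 26.0% of all genes. Medians of that list were 0.06, -0.02 and -0.03, and the interaction called 9 of its 35 genes. GPRC5A, a retinoic acid-inducible receptor in that list, was at 42.8, 238, 58.5, 119 and 105 CPM in the HA control, HA FOSL1, the VPR control, gRNA2 and gRNA3 (edgeR adjusted p = 0.084). It lay at least 1.5-fold above its control in all 3 arms, as did LOXL2 and SLC16A3, the latter at a lower level. The share of all genes that did so was not counted, and both guide arms share the VPR control.

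Of 24 further isoenzymes and branch enzymes, 14 were tested and edgeR called 1, GYS1, where the model called 1.61% of all genes. DESeq2 called 2 of the 14 (7.22% of all genes), and 5 had an unadjusted edgeR p under 0.05 (26.0% of all genes). GYS1, the glycogen synthase of most tissues, stood at 17.1, 22.9, 18.2, 25.1 and 25.0 CPM in the HA control, HA FOSL1, the VPR control, gRNA2 and gRNA3, and rose by 0.47 log2 (SE 0.06, edgeR adjusted p = 0.041, 3 of 3 arms). Its ratios of 0.40, 0.44 and 0.44 were close to each other. The model called 0 of 8 genes of the pentose phosphate pathway (1 at an unadjusted p under 0.05 in edgeR, 0 by DESeq2) and 0 of the 17 tested genes of pyruvate entry and gluconeogenesis (4 at an unadjusted p under 0.05 in edgeR, 0 by DESeq2). Medians of these lists lay within 0.06 log2 of 0 in each arm. The interaction called 12.2% of all genes. Of these lists, it called 2 of the 14 isoenzymes and branch enzymes, and 2 of the 17 genes of pyruvate entry and gluconeogenesis. It called 0 of the 8 pentose phosphate genes (3 at an unadjusted edgeR p under 0.05, 0 by DESeq2).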

How the data were processed

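The deposited matrix holds raw UMI counts for 33538 genes, 5 hashtags and 3314631 barcodes, made by the authors with Cell Ranger 4, per the file headers, on hg38, per the submitters' processing notes. The annotation version, and whether counting used strand, are not given in the sources used here. The deposited assignment table gives each of 21228 called cells a hashtag, and a probability, which the authors express as a fraction of 1. The hashtags prefixed GOF were taken as the HA samples, by elimination. Of these cells 15371 had 1 hashtag, and 5181 multiplets, 402 unassigned cells and 274 blanks were left out. Doublets within a sample were not called. Kept cells (14642) had at least 1500 genes and at most 20% mitochondrial UMIs.

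UMIs were summed per sample and scaled to CPM. Ratios are log2 of CPM + 1, which understates low genes, with exact conditional binomial intervals, while levels have Poisson and shares Clopper-Pearson intervals, all 95% and of counting error only. Genes were counted at 1.5-fold and a mean of 20 CPM over the samples compared. Empty droplets were 48909 barcodes with 10 to 100 UMIs, which held 2112998 UMIs from the pool of all samples. Their levels are given without intervals. Models used edgeR 4.0.16 (glmQLFit, glmQLFTest, TMM, filterByExpr, Benjamini-Hochberg over all genes, adjusted p under 0.05), with DESeq2 1.42.0 as an alternative. The models and intervals were tested on simulated data.

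The members and gene lists were chosen with earlier results of these data known. Values per sample are printed for members at 20 CPM or more that lay 1.5-fold from their control in any arm, for those a model called and for the 3 most abundant enzymes, and CA9, DDIT4 and SLC2A1 were added after their values were seen.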

Additional observations from a re-analysis of the deposited data

Results flagged for a closer look

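A difference between the systems was found for 10 of the 40 genes by the interaction of system and FOSL1 state (VPR effect minus HA effect, log2, edgeR adjusted p under 0.05), against 12.2% of all genes. The effect was lower in the VPR system for ADM (-1.48), P4HA2 (-1.26), ERO1A (-0.82), PFKP (-0.82), HK2 (-0.61), SLC16A1 (-0.54), EGLN3 (-0.45) and EGLN1 (-0.35). It was higher, that is closer to 0 from below, for LDHB (0.65) and PFKL (0.33). For LDHB, HA FOSL1 differed from the VPR control by 0.08 log2, a ratio across both system and FOSL1 state. With 1 sample per group, the part of the HA control sample in this flag was not tested. DESeq2 called 5 of the 10 (2.74% of all genes), ADM, P4HA2, ERO1A, PFKP and LDHB, and not SLC16A1, EGLN1, HK2, EGLN3 or PFKL. FOSL1 RNA, as counted near the 3' end, rose more in the VPR arms, by 3.36 and 3.27 log2 against 2.70 in the HA arm. Whether such tags count FOSL1 RNA alike in both systems was not tested, nor was the part of FOSL1 level in these differences.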

How the results depend on the processing

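Counts of members at 1.5-fold stayed within 1.5 times of those reported under other scalings, pseudocounts, cell filters, removal of the deepest cells or of 5% free RNA, matched depth and thinning. The members counted could change. In cells with at least 3000 genes and at most 10% mitochondrial UMIs, the HA count was 5, with 3 of the 4 reported members among them. The HA ratios were then -0.54 for HILPDA, 0.82 for PFKP, -1.01 for LDHB and 0.76 for ERO1A. Without a minimum level the counts were 8 in the HA arm, 2 under gRNA2, 2 under gRNA3 and 1 between the guides, and at a limit of 0.32 log2 in place of 1.5-fold they were 11, 2 and 3 in the 3 arms and 2 between the controls. Against the control of the other system they were 2 in the HA arm, 1 under gRNA2 and 2 under gRNA3, and the HA ratio of LDHB reversed to 0.075. For the genes counted, 41 of 54 alternative ratios stayed within the counting interval of the reported value. The model of 5 samples called 1 member, where 1.61% of all genes were called, but 11 with DESeq2 (7.22% of all), 12 with no filter on low counts (8.39%), 2 without the system covariate (1.29%), and 0 to 25 when 1 sample was left out (0 without gRNA2 or gRNA3, with 0 of all genes, 13 without HA FOSL1, with 11.3% of all, 15 without the HA control, with 13.0%, and 25 without the VPR control, with 37.0%), and without a control or HA FOSL1 the fit asks about fewer arms. The 11 of DESeq2 were SLC16A3, SLC16A1, SLC2A1, LDHA, PKM, PGAM1, TPI1, PFKP, BNIP3L and ERO1A, all higher, and HILPDA, lower. The interaction called 10 members (12.2% of all genes), 5 with DESeq2 (2.74%), 13 with no filter (10.5%) and 9 with upper quartile factors (10.5%), where HK2 (edgeR adjusted p = 0.074) and EGLN1 (0.085) were not called. Alternatives for the comparison of the guides were chosen after seeing the data. No paired analysis was possible because each group held 1 sample and the labels give no replicate numbers. Depth limits ALDOC, SLC2A3, NDRG1, ANKRD37 and PFKFB4, whose levels lay under 3 CPM, so that their ratios rest on few UMIs. The counting intervals of ALDOC and PFKFB4 held 0 in every arm. Those of SLC2A3, NDRG1 and ANKRD37 excluded 0 in the HA arm, and that of SLC2A3 also under gRNA3.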
